A study of Mus musculus with 8 samples.

Results

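Calcium handling by the sarcoplasmic reticulum was examined through 10 genes: Sln, Pln, Atp2a2, Ryr2, Casq1, Casq2, Jph2, Trdn, Slc8a1 and Hrc. They were chosen by name, and all 10 were among the 20701 gene symbols of the deposited table and among the 13769 genes with enough counts to be tested. Where a symbol had several transcripts, the one with most counts on average was taken. The measurements came from polyadenylated RNA of hearts at the E10.5 stage, where the region dissected from C57BL/6 mice was the OFT/RV (outflow tract with right ventricle) and each library was made from 1 embryo. In the 4 CTRL embryos the genotype was labelled wild type. In the 4 Isl1_hypo embryos it was labelled Isl1 hypomorph, which the study writes as Isl1-f;neo/f;neo. The question was how the genes that move calcium in the heart muscle cell stood when Isl1, the LIM-homeodomain factor of second heart field progenitors, was reduced.

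In a heart muscle cell, calcium that enters during the action potential opens the ryanodine receptor (Ryr2) of the sarcoplasmic reticulum, and the calcium that leaves the store starts contraction. The pump encoded by Atp2a2 returns calcium to the store, the small membrane proteins phospholamban (Pln) and sarcolipin (Sln) slow that pump, calsequestrin (Casq1, Casq2) holds calcium inside the store, and the exchanger Slc8a1 carries it out of the cell. Sarcolipin is best known from the atria and from skeletal muscle, and phospholamban from the ventricles.

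With 1 transcript per gene, the CTRL libraries held 29748458 to 46678973 counts and the Isl1_hypo libraries 18422245 to 33050298. The 10 genes together took 0.266% to 0.367% of the counts of a library. Isl1 itself had a log2 fold change of −2.29 in Isl1_hypo against CTRL (adjusted p = 0.0077, edgeR quasi-likelihood test with Benjamini-Hochberg adjustment). The summed level of 7 cardiomyocyte genes (Actc1, Actn2, Myl3, Nkx2-5, Tnnc1, Tnni1 and Tnnt2) was 29840 to 36471 CPM (depth-scaled counts) in CTRL and 34034 to 40854 CPM in Isl1_hypo, and 0 of the 7 passed the test in edgeR, DESeq2 or limma-voom, with 0 at an unadjusted p under 0.05 in edgeR. On the first principal component of the 1000 most variable genes Isl1_hypo replicate 3 lay at 72.0, and the other 7 libraries lay between −17.7 and 3.97. Erythroid genes summed to 1955 to 11504 CPM in CTRL and to 11503 to 24363 CPM in Isl1_hypo. Epithelial genes (Cdh1, Epcam and Cldn6) summed to 63.6 CPM in Isl1_hypo replicate 1 and to 2.28 CPM or less elsewhere. The part of these differences in the results below was not tested. Values without a library and with globin as a covariate are given below. The globin genes summed to 2020 to 11899 CPM in CTRL and to 11872 to 25522 CPM in Isl1_hypo. That covariate thus largely follows the groups, and with it blood and genotype cannot be told apart.

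Of the 10 genes, Sln alone passed the test in edgeR, and Sln and Pln passed it in DESeq2. Sln fell to 20.5% of its CTRL mean in Isl1_hypo. The genes for the pump, the calcium release channel, both calsequestrins, triadin and the exchanger had intervals that included no difference, and Pln, Jph2 and Hrc stood in between, with an unadjusted p under 0.05 that did not pass adjustment in edgeR. Thus 1 of 10 genes was lower and 0 of 10 higher at an adjusted p under 0.05 in edgeR and in limma-voom (1 lower and 1 higher in DESeq2), where in edgeR 0.123% of all genes tested were lower and 0.145% were higher. The corresponding shares of all genes were 1.26% lower and 1.08% higher in DESeq2, and 0.458% lower and 0.516% higher in limma-voom. At an unadjusted p under 0.05, 3 of 10 were lower (Sln, Jph2 and Hrc) and 1 of 10 was higher (Pln), against 6.17% and 5.69% of all genes tested. The groups did not overlap in CPM for 2 genes that were lower (Sln and Jph2) and for 1 that was higher (Pln), and over all genes tested this held for 4.44% and 4.06%. The median log2 fold change of the 10 genes was −0.16, with 7 negative and 3 positive values, beside a median of 0.0057 over all genes tested. The median of the 10 genes was −0.27 to −0.063 without 1 library and −0.057 with the length trend removed. In tissue RNA of this kind, fewer cells of a type and less RNA per cell cannot be told apart.

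**Figure D1:**
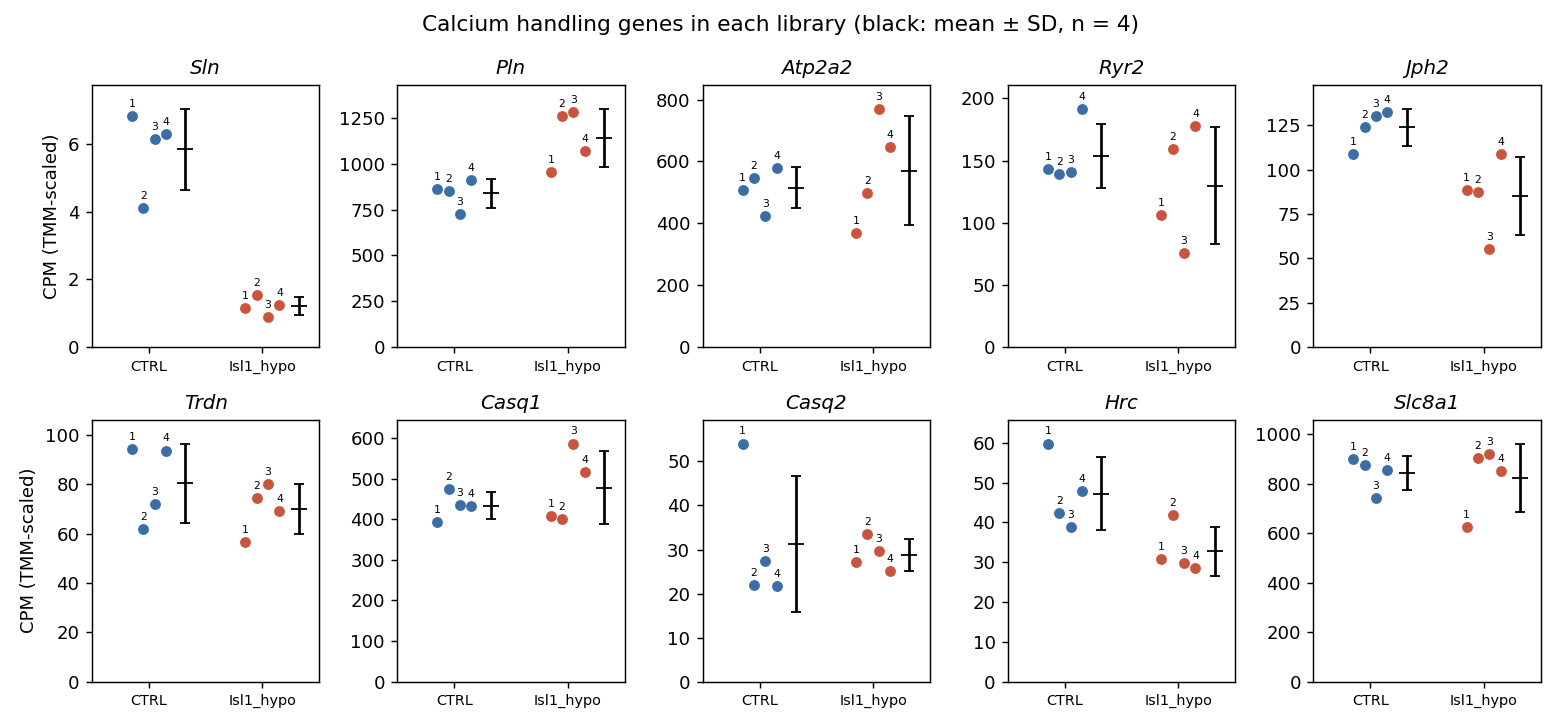
Level of each of the 10 genes in CPM (vertical axes, each from 0 and on its own scale) in the 4 CTRL and 4 Isl1_hypo libraries, numbered by replicate, with the mean ± SD in black. The groups are apart for Sln (0.885 to 1.54 against 4.11 to 6.85 CPM), Pln and, barely, Jph2, and overlap for the other 7 genes.

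**Figure D2:**
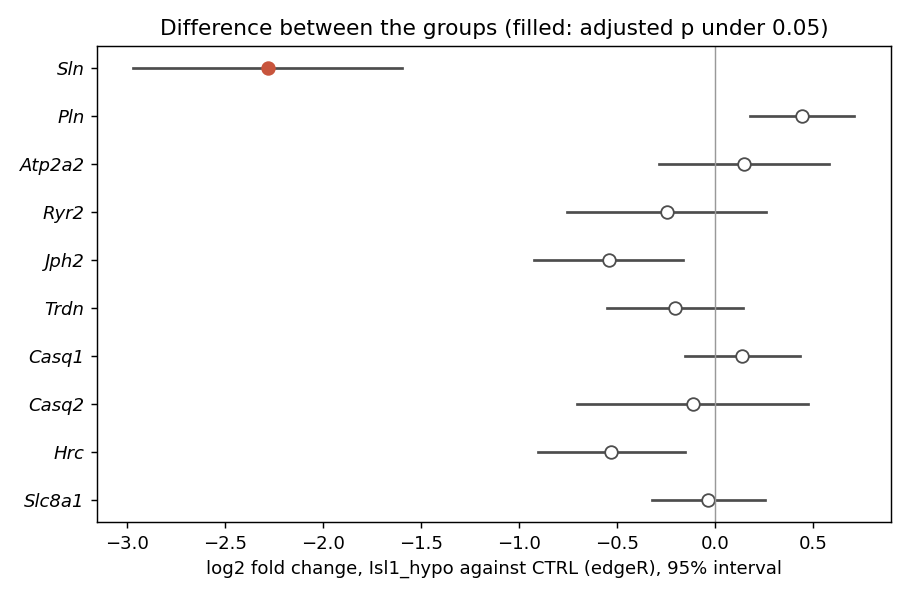
Log2 fold change of Isl1_hypo against CTRL (horizontal axis) with its 95% interval from the edgeR fit, for each of the 10 genes in order of role. Sln at −2.28 is the filled point, the only one with an adjusted p under 0.05, and the intervals of 6 genes cross 0.

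Of the inhibitors of the pump, Sln fell, and Pln had a positive log2 fold change that passed adjustment in DESeq2 but not in edgeR. Sln lies on the plus strand of chromosome 9 (mm9, 53698058 to 53701651), where the GENCODE annotation gives a protein-coding gene of 2 exons with no other gene over its exons. CTRL replicates 1 to 4 held 6.85, 4.11, 6.16 and 6.31 CPM of Sln. Isl1_hypo replicates 1 to 4 held 1.14, 1.54, 0.885 and 1.25 CPM. All 4 Isl1_hypo embryos lay below all 4 CTRL embryos, with CTRL replicate 2 the lowest of its group and Isl1_hypo replicate 3 the lowest of all. On average Sln dropped from 5.85 ± 1.20 to 1.20 ± 0.270 CPM (SD, n = 4). In edgeR its log2 fold change was −2.28 (standard error, SE, 0.313), with a 95% interval of −2.97 to −1.60 and an adjusted p of 0.0172.

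Sln was the least deeply counted of the 10 genes, with 167 to 295 counts in the CTRL libraries and 21 to 41 in the Isl1_hypo libraries. The exact 95% Poisson interval of the lowest CTRL library began at 3.51 CPM and that of the highest Isl1_hypo library ended at 2.08 CPM, so that counting error, which is all these intervals cover, did not bridge the groups. The adjusted p of Sln rose above 0.05 without CTRL replicate 1 (0.0728), CTRL replicate 3 (0.0929) or Isl1_hypo replicate 4 (0.0597), while its log2 fold change stayed between −2.43 and −2.15 when any 1 library was left out. With the globin level as a covariate, which largely follows the groups, it was −2.34, with an adjusted p of 0.420 (edgeR). Over all genes 0 then passed the test, with 230 lower and 293 higher at an unadjusted p under 0.05. Of the 10 genes, 1 (Sln) then had an unadjusted p under 0.05.

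Pln lies on the plus strand of chromosome 10 (mm9, 53057492 to 53065805). CTRL replicates 1 to 4 held 865, 853, 726 and 913 CPM of Pln. The Isl1_hypo embryos held 954, 1264, 1284 and 1070 CPM, in the same order of replicates. The lowest Isl1_hypo embryo lay just above the highest CTRL embryo, so the groups did not overlap, but by a narrow margin. The means were 839 ± 79.8 and 1143 ± 159 CPM (SD, n = 4). For Pln the log2 fold change was 0.45 (SE 0.122, 95% interval 0.18 to 0.71, adjusted p = 0.198, edgeR). DESeq2 gave the same log2 fold change of 0.45 with an adjusted p of 0.0352.

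Because Sln and Pln act on the same pump, the ratio of their transcripts was taken in each library from CPM per kilobase of transcript. Sln stood at 3.80%, 2.31%, 4.07% and 3.31% of Pln in CTRL replicates 1 to 4. In Isl1_hypo replicates 1 to 4 it stood at 0.574%, 0.583%, 0.331% and 0.558%. Pln was thus far the more abundant inhibitor in every embryo, and the groups were apart. The mean ratio was 3.37% ± 0.774 in CTRL and 0.511% ± 0.121 in Isl1_hypo (SD, n = 4), a log2 difference of −2.73 or 6.61-fold, which is given as a description without a test. Leaving out any 1 library kept this difference between −2.90 and −2.53.

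**Figure D3:**
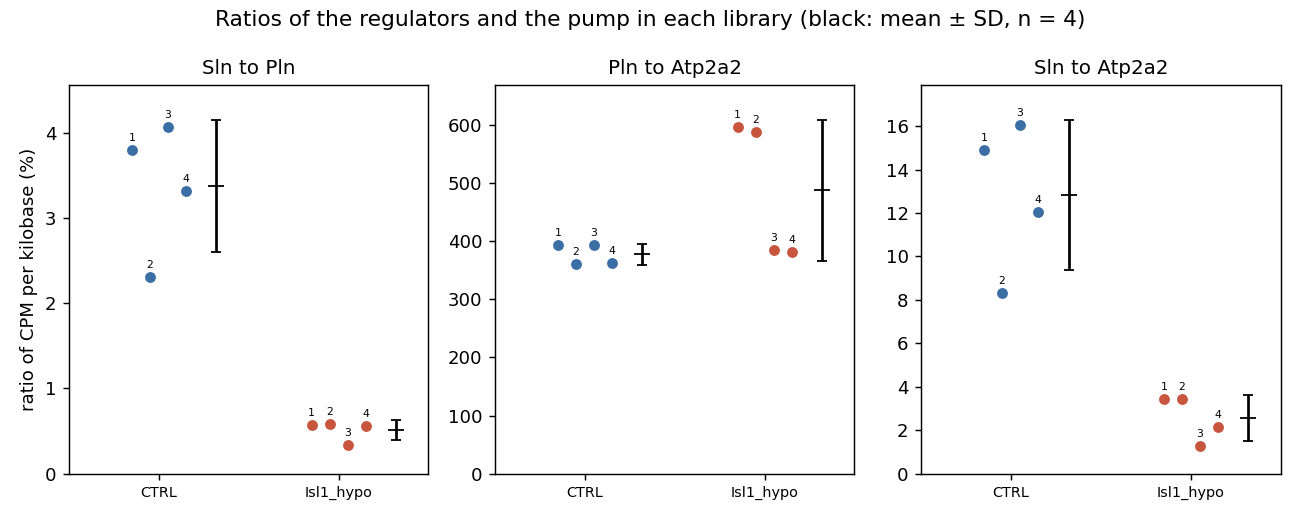
Ratios of CPM per kilobase in percent (vertical axes from 0) in each library, numbered by replicate, with the mean ± SD in black, for Sln to Pln, Pln to Atp2a2 and Sln to Atp2a2. Both ratios with Sln are apart between the groups, and the ratio of Pln to the pump is high in Isl1_hypo replicates 1 and 2 only.

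The target of both inhibitors, the pump gene Atp2a2 (minus strand of chromosome 5, mm9, 122903531 to 122952183), did not differ between the groups beyond their spread. Its level was 508, 545, 425 and 579 CPM in CTRL and 369, 496, 770 and 647 CPM in Isl1_hypo replicates 1 to 4. The lowest and the highest of all 8 values were both Isl1_hypo embryos, and the coefficient of variation was 12.9% in CTRL and 30.7% in Isl1_hypo. The log2 fold change was 0.15 (SE 0.197, 95% interval −0.28 to 0.58, adjusted p = 0.795, edgeR), and it was −0.029 without Isl1_hypo replicate 3. The transcript kept for Atp2a2 was an entry annotated as non-coding that shares its reads with the coding transcripts, and the other 2 transcripts had log2 fold changes of 0.17 and 0.17 when every transcript was fitted.

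Set against the pump, the inhibitors differed in pattern. Pln stood at 3.93, 3.60, 3.94 and 3.63 times Atp2a2 per kilobase in CTRL. In Isl1_hypo it stood at 5.96 and 5.87 times in replicates 1 and 2 and at 3.84 and 3.81 times in replicates 3 and 4. The last 2 values fall inside the CTRL range, so the groups overlapped. Sln stood at 8.33% to 16.0% of Atp2a2 in CTRL and at 1.27% to 3.42% in Isl1_hypo, without overlap.

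Calcium release was examined through the channel and the proteins that place it. Ryr2 (minus strand of chromosome 13, mm9, 11645370 to 12199212) encodes the release channel and spans the longest locus of the 10. CTRL embryos held 143, 139, 141 and 192 CPM, and Isl1_hypo embryos held 107, 159, 75.3 and 178 CPM. Isl1_hypo replicates 1 and 3 lay below all CTRL embryos and replicates 2 and 4 within their range. Its log2 fold change was −0.24 (SE 0.232, 95% interval −0.75 to 0.26, adjusted p = 0.703, edgeR). Without 1 library it ranged from −0.44 (without Isl1_hypo replicate 4) to −0.055 (without Isl1_hypo replicate 3).

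Junctophilin 2, encoded by Jph2 (minus strand of chromosome 2, mm9, 163161978 to 163223729), ties the sarcoplasmic reticulum to the plasma membrane. Its level was 109.13, 124, 130 and 132 CPM in CTRL. In Isl1_hypo its level was 88.8, 87.7, 55.4 and 109.11 CPM. The groups did not overlap, but the lowest CTRL and the highest Isl1_hypo embryo differed only in the second decimal, and Isl1_hypo replicate 3 was far below the rest. The means were 124 ± 10.498 and 85.2 ± 22.2 CPM (SD, n = 4). For Jph2 the log2 fold change was −0.54 (SE 0.173, 95% interval −0.92 to −0.16, adjusted p = 0.279, edgeR), and −0.38 without Isl1_hypo replicate 3. Triadin, encoded by Trdn (plus strand of chromosome 10, mm9, 32803289 to 33196515), anchors calsequestrin to the channel. Its transcript ranged from 62.0 to 94.1 CPM in CTRL and from 56.4 to 80.0 CPM in Isl1_hypo. For Trdn the log2 fold change was −0.20 (SE 0.158, adjusted p = 0.637, edgeR). It was −0.31 to −0.11 without 1 library and −0.45 with the globin covariate.

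The calcium-binding proteins of the store are the calsequestrins and the histidine-rich calcium-binding protein. Casq2 (plus strand of chromosome 3, mm9, 101890338 to 101950437), the calsequestrin of adult heart muscle, stood at 54.1, 21.9, 27.3 and 21.6 CPM in CTRL and at 27.2, 33.5, 29.6 and 25.05 CPM in Isl1_hypo. CTRL replicate 1 stood well above all other embryos, and the direction turned without it: the log2 fold change was −0.11 over all libraries (SE 0.268, 95% interval −0.70 to 0.47, adjusted p = 0.898, edgeR) and 0.28 without that embryo. Casq1 (minus strand of chromosome 1, mm9, 174140025 to 174150026), the calsequestrin known from fast skeletal muscle, was the more abundant of the pair in every library. It stood at 392, 475, 435 and 432 CPM in CTRL and at 409, 399, 586 and 517 CPM in Isl1_hypo. The log2 fold change was 0.14 (SE 0.134, 95% interval −0.15 to 0.43, adjusted p = 0.704, edgeR), and it was 0.027 without Isl1_hypo replicate 3 and 0.21 without Isl1_hypo replicate 1 or 2. Per kilobase Casq1 stood at 21.8 ± 8.66 times Casq2 in CTRL and at 22.6 ± 5.51 times in Isl1_hypo (SD, n = 4).

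The skeletal muscle regulators Myod1, Myf5, Myog and Myf6 had too few counts to be tested, and the 7 skeletal muscle genes examined summed to 54.5 to 91.0 CPM in CTRL and to 73.7 to 107.7 CPM in Isl1_hypo, most of it Mylpf. Myog had 6, 4, 3 and 13 counts in CTRL replicates 1 to 4 and 0 in all 4 Isl1_hypo libraries, whereas Actn3 had a positive log2 fold change (0.76, adjusted p = 0.418, edgeR). The part of skeletal muscle in these results was not tested. Strand was not used in counting, and 7.89% of the annotated exon bases of Casq1 overlap Gm17224 on the opposite strand, so reads of the 2 genes cannot be told apart there.

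Hrc (plus strand of chromosome 7, mm9, 52590660 to 52594343) encodes a calcium-binding protein of the store that associates with triadin and the pump. Its transcript reached 59.8, 42.3, 38.9 and 48.0 CPM in CTRL but 30.7, 41.8, 29.9 and 28.6 CPM in Isl1_hypo. Replicates 1, 3 and 4 of Isl1_hypo lay below all CTRL embryos, and replicate 2 lay within their range. The means were 47.2 ± 9.17 and 32.7 ± 6.10 CPM (SD, n = 4). For Hrc the log2 fold change was −0.53 (SE 0.171, 95% interval −0.90 to −0.15, adjusted p = 0.283, edgeR).

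Removal of calcium from the cell was represented by Slc8a1 (minus strand of chromosome 17, mm9, 81785359 to 82048947), which encodes the sodium-calcium exchanger of the plasma membrane. Its transcript stood at 901, 875, 743 and 856 CPM in CTRL and at 624, 905, 921 and 851 CPM in Isl1_hypo. Isl1_hypo replicate 1 alone lay below the CTRL range. The log2 fold change was −0.03 (SE 0.131, 95% interval −0.32 to 0.26, adjusted p = 0.946, edgeR).

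**Figure D4:**
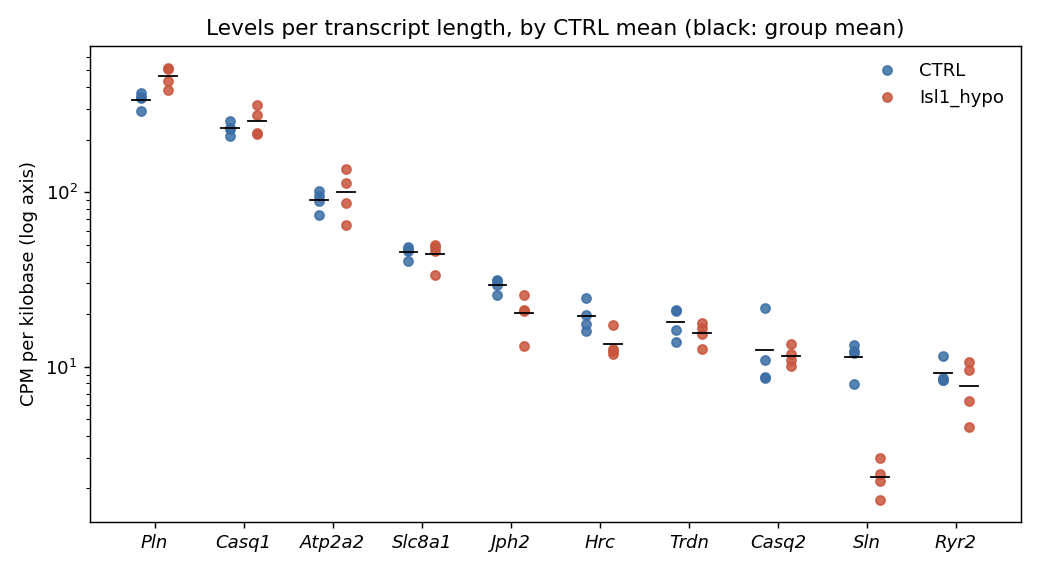
CPM per kilobase of transcript (vertical axis, log scale) of the 10 genes, ordered by their CTRL mean, with 1 point per library and the group mean as a black bar. Sln goes from beside Casq2 and Ryr2 in CTRL to below every other gene in Isl1_hypo, at 1.72 to 2.98 CPM per kilobase.

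Levels were compared between genes only per deposited transcript length. The place of Slc8a1 rests on 18562 bases, where the GENCODE annotation gives 3068 exon bases. In CTRL the order ran from Pln at a mean of 339 CPM per kilobase to Casq1 (233), Atp2a2 (90.1), Slc8a1 (45.5) and Jph2 (29.3), and the ranges of these neighbours did not overlap. Below them came Hrc (19.5), Trdn (18.0), Casq2 (12.5), Sln (11.3) and Ryr2 (9.19), where each neighbour overlapped the next. The first 4 places were the same in Isl1_hypo, at 462, 257, 100.0 and 44.4 CPM per kilobase. Sln ranked 9, 10, 8 and 8 of 10 in CTRL replicates 1 to 4 and 10 of 10 in all 4 Isl1_hypo libraries, at a mean of 2.33 CPM per kilobase, where it no longer overlapped Ryr2 (7.76).

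The libraries were not alike within Isl1_hypo. Replicate 3, the library that stood apart on the first component, held the lowest level of its group for Sln, Ryr2 and Jph2 and the highest for Pln, Atp2a2, Casq1, Trdn and Slc8a1. In deviation from the CTRL mean of log2 CPM, Jph2 was at −1.16 and Ryr2 at −1.01 in this library, while Atp2a2 was at 0.59 and Pln at 0.62. The slope of that library's expression on log2 transcript length was −0.108, against −0.028 to 0.119 in the others. Ryr2 and Slc8a1 have the longest deposited transcript lengths of the 10 genes (16706 and 18562 bases). In this library Ryr2 was the lowest and Slc8a1 the highest of the group. The GENCODE annotation gives Slc8a1 only 3068 exon bases, so its value with the trend removed rests on the deposited length. With the trend on length removed, the log2 fold changes were −2.32 for Sln, 0.44 for Pln, −0.51 for Jph2 and −0.54 for Hrc, while that of Ryr2 was 0.0033. That of Slc8a1 turned from −0.03 to 0.27, with an unadjusted p of 0.0387 and an adjusted p of 0.372 (edgeR). Without Isl1_hypo replicate 3 the log2 fold changes of Sln, Pln, Jph2, Hrc and Ryr2 were −2.15, 0.38, −0.38, −0.49 and −0.055. Replicate 1, the library with the fewest counts and the highest epithelial sum, held the lowest level of its group for Pln, Atp2a2, Trdn and Slc8a1. Without it the log2 fold changes of Atp2a2 and Slc8a1 were 0.31 and 0.080.

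**Figure D5:**
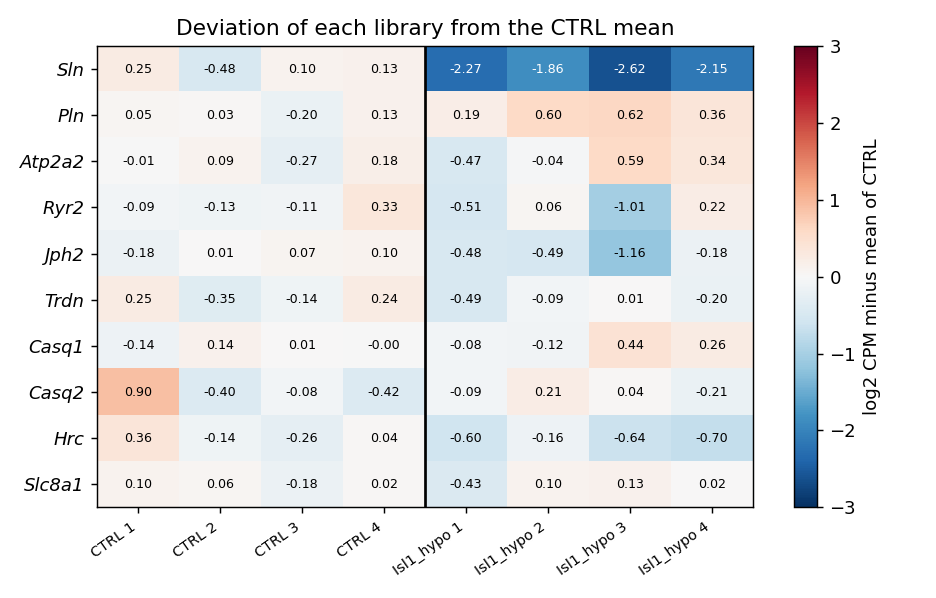
Difference of log2 CPM from the CTRL mean for each gene (vertical axis, ordered by role) in each of the 8 libraries (horizontal axis), with the value written in each cell and the black line between the groups. Sln lies between −2.62 and −1.86 in the Isl1_hypo libraries, and Isl1_hypo replicate 3 shows the lowest values of Ryr2 (−1.01) and Jph2 (−1.16).

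Across the 8 libraries, Sln ran most nearly with Hrc (Pearson r = 0.83 of log2 CPM) and Jph2 (0.79) among the other 9 genes and opposite to Pln (−0.80). Atp2a2 ran with Casq1 (0.79) and Slc8a1 (0.78), and Ryr2 with Jph2 (0.81). These correlations are descriptions over libraries that share 2 groups and their depths. Of 10744 genes with a mean of at least 5 CPM, those most like Sln by the same measure were Rrbp1 (0.969), Fgfrl1 (0.969), 2410089E03Rik (0.968), Diras2 (0.967) and Pde4a (0.963), and their log2 fold changes were −0.74, −0.90, −0.37, −1.08 and −0.88. All 5 had groups apart, 3 passed the test (Rrbp1, Fgfrl1 and Diras2, edgeR), and the measure of likeness includes the difference between the groups.

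The promoters of the 3 genes with an unadjusted p under 0.05 beside Sln are shown because their log2 fold changes differed in sign, positive for Pln and negative for Jph2 and Hrc. The reference table held promoters for 7 of the 10 genes and none for Sln, Atp2a2 and Trdn. Each sequence gives the 200 bases before the gene's start in RefSeq, build GRCm38.p6, 5′ to 3′ on the gene's strand. Capitals mark matches, on either strand, to TAAT (the core letters of homeodomain sites), AGATAA (letters that GATA factors bind) and CANNTG (an E-box). Pln lies on the plus strand at chr10:53337486-53337685, Jph2 on the minus strand at chr2:163397994-163398193 and Hrc on the plus strand at chr7:45335069-45335268.
Pln: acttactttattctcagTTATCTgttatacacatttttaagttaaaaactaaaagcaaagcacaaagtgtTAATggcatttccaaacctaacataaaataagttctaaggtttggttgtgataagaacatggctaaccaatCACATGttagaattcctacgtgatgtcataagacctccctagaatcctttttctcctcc
Jph2: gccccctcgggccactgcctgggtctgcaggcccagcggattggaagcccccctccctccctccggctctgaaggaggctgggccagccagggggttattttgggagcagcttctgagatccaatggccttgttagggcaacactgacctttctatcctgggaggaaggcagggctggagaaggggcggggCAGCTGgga
Hrc: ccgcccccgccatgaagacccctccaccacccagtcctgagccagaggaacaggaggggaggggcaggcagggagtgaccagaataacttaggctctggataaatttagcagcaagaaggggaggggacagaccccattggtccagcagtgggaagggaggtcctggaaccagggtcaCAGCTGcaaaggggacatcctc
The window of Pln held 1 TAAT, 1 AGATAA and 1 CANNTG, and those of Jph2 and Hrc each held 1 CANNTG and neither of the other motifs. No window held a match to the letters searched for a MEF2 box (CTA and TAG with 4 letters between) or a CArG box. Only these patterns were searched, so variants, such as TGATAA in the window of Pln, are not marked. In windows of the same length at 32851 RefSeq promoters, TAAT was found in 47.0%, AGATAA in 7.80%, CANNTG in 58.2%, a MEF2 box in 2.49% and a CArG box in 1.18%, so TAAT and CANNTG are common by their letters alone.

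Beyond the 10 genes, 42 further calcium handling genes of a list were in the table and 39 were tested. None passed the test in edgeR, and 1 passed it in DESeq2 and in limma-voom (Cacna1d). At an unadjusted p under 0.05, 6 were lower (Cacna1d, Cacna1c, Fkbp1b, Speg, Bin1 and Itpr2) and 1 was higher (Calm3), shares to be read against the same 6.17% and 5.69% of all genes. The median log2 fold change was −0.021, with 23 negative and 16 positive values. The smallest p belonged to Cacna1d, which encodes an L-type calcium channel of pacemaker and atrial cells. Its transcript stood at 19.96, 18.7, 22.6 and 20.6 CPM in CTRL and at 10.3, 9.89, 9.70 and 14.4 CPM in Isl1_hypo. The groups were apart, with means of 20.5 ± 1.60 and 11.1 ± 2.21 CPM (SD, n = 4). The log2 fold change was −0.89 (SE 0.168, adjusted p = 0.0597, edgeR).

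Fkbp1b, whose product binds and steadies the ryanodine receptor, had means of 15.8 and 10.8 CPM, and its log2 fold change was −0.55 (SE 0.163, adjusted p = 0.224, edgeR). Speg, which encodes a kinase of the junction between the store and the plasma membrane, had means of 58.4 and 44.2 CPM, and its log2 fold change was −0.40 (SE 0.121, adjusted p = 0.236, edgeR). Both were apart between the groups. In the other direction, the calmodulin gene Calm3 had means of 121 and 150 CPM, and its log2 fold change was 0.31 (SE 0.102, adjusted p = 0.287, edgeR), followed by Mcu, the pore of the mitochondrial calcium uniporter (0.34, adjusted p = 0.425).

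The paralogs of the 10 genes were scarce. The mean in CTRL and in Isl1_hypo was 3.65 and 4.63 CPM for Atp2a1, the pump of fast skeletal muscle, and 6.66 and 6.96 CPM for Atp2a3. It was 0.591 and 0.246 CPM for the skeletal muscle channel Ryr1, and 2.90 and 2.44 CPM for Ryr3. Jph1 stood at 2.78 and 2.34 CPM and Jph3 at 0.779 and 0.601 CPM, and Slc8a2 and Slc8a3 lay below 1 CPM in the mean of each group. None of these 8 passed the test in edgeR, DESeq2 or limma-voom or had an unadjusted p under 0.05, and Jph4 had too few counts for it. Per kilobase the highest of them, Atp2a3, had means of 1.46 CPM in CTRL and 1.52 CPM in Isl1_hypo, below the means of all 10 genes.

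Since Sln is known as an atrial gene and the tissue was dissected, markers of neighbouring myocardium were set beside it. The 8 atrial genes (Nr2f1, Nr2f2, Myl7, Myl4, Kcnj3, Angpt1, Tbx5 and Stard10) summed to 8530 to 11288 CPM in CTRL and to 9542 to 11933 CPM in Isl1_hypo. The log2 fold changes of 6 of the 8 were positive, led by Stard10 (1.03, adjusted p = 0.205) and Nr2f2 (0.97, adjusted p = 0.173), and 0 of 8 passed the test in edgeR, with 2 at an unadjusted p under 0.05 that also passed in DESeq2. The sum was 10246 CPM on average in CTRL and 10475 CPM in Isl1_hypo. Nearly all of it was Myl7 (5947 and 6428 CPM) and Myl4 (4134 and 3861 CPM), so it says little of the scarcer genes. Nr2f2 (means of 13.1 and 25.7 CPM) and Stard10 (3.86 and 7.90 CPM) were apart between the groups. The part of atrial tissue in the level of Sln was not tested. The 5 ventricular genes (Myl2, Irx4, Hey2, Myh7 and Nppb) summed to 9695 to 11974 CPM in CTRL and to 7412 to 10805 CPM in Isl1_hypo, with the lowest sum in Isl1_hypo replicate 3. Of these 5, 0 passed the test in edgeR, 1 was lower and 1 higher at an unadjusted p under 0.05, and 1 (Myh7) was lower in DESeq2.

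Markers of other cell types were set beside these. The 4 smooth muscle genes summed to 5106 to 7613 CPM in CTRL and to 5178 to 7504 CPM in Isl1_hypo, most of it Acta2, and all 4 log2 fold changes were negative, with 1 at an unadjusted p under 0.05 (Myh11, means of 0.884 and 0.143 CPM). The 5 endothelial genes summed to 442 to 493 CPM and to 369 to 469 CPM. Of these, Pecam1 (−0.58, adjusted p = 0.170, edgeR) and Cdh5 (−0.54, adjusted p = 0.241, edgeR) were apart between the groups, Kdr was at −0.20, and Emcn and Nfatc1 were at 0.23 and 0.36. The 4 mesenchyme genes summed to 262 to 787 CPM and to 204 to 437 CPM, with 4 of 4 log2 fold changes negative and 1 at an unadjusted p under 0.05 (Twist1). The 5 neural genes summed to 53.5 to 78.5 CPM and to 33.1 to 55.6 CPM, with 2 of the 3 tested genes negative and 1 at an unadjusted p under 0.05 (Stmn2). In edgeR 0 genes of these lists passed the test, in limma-voom 0, and in DESeq2 1 (Pecam1, lower). The part of these cells in the results was not tested.

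Genes of outflow tract myocardium (Rspo3, Tdgf1, Sema3c, Bmp4 and Wnt11) had a lower summed level in the embryos in which Sln was lower. They summed to 490 to 593 CPM in CTRL and to 310.3 to 372 CPM in Isl1_hypo, with no overlap. All 5 log2 fold changes were negative. In edgeR 1 of 5 passed the test, beside 0.123% of all genes tested that were lower. This was Bmp4, a secreted growth factor (−0.94, adjusted p = 0.0172, edgeR), with means of 227 and 118 CPM. Rspo3, a secreted enhancer of Wnt signalling, followed (−0.67, adjusted p = 0.0688), and DESeq2 and limma-voom called both Bmp4 and Rspo3 lower. Rspo3 had means of 116 and 73.0 CPM, and its groups were apart. The groups overlapped for Sema3c (−0.42, means of 136 and 101 CPM), Tdgf1 (−0.44, 3.20 and 2.35 CPM) and Wnt11 (−0.11, 58.8 and 54.6 CPM). The part of outflow tract myocardium in the level of Sln was not tested.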

How the data were processed

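Polyadenylated RNA of 4 CTRL and 4 Isl1_hypo embryos was analysed, grouped by the sample labels. The table heads its mutant columns MUT, which the labels do not use, and these were taken as the Isl1_hypo samples of the same replicate number. The authors aligned reads with STAR to mm9 and deposited whole-number exon counts per RefSeq transcript, made with HOMER without regard to strand, so reads of overlapping genes add up. The authors also deposited RPKM values from edgeR and transcript lengths in bases. The lengths were used here for CPM per kilobase, and the RPKM values were not tested. Columns of the authors' own DESeq2 comparison (mean signal, log2 fold change, its error, statistic, p-values) were not used.

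The table held 31507 transcripts of 20701 symbols, and 1 transcript per symbol, that with the highest mean count, was kept. After filterByExpr 13769 genes went through edgeR's quasi-likelihood test (edgeR 4.0.16, R 4.3.3) with TMM scaling, no covariates and Benjamini-Hochberg adjustment over all genes, with a threshold of 0.05. The biological coefficient of variation was 26.4%. SE is the log2 fold change divided by the square root of the F statistic, and CPM used TMM-scaled totals. Log2 CPM had a prior count of 2. Totals of 18422245 to 46678973 counts per library set the precision. The fit was tested on simulated data. Embryos are the replicates. The genes, lists and tests were chosen with earlier results of these data known. Named genes were the 10, their paralogs, marker genes, the 3 further calcium genes of smallest p in each direction and the 5 genes most correlated with Sln. A gene that this naming rule selects is not reported here. The other alternatives were RLE and upper quartile scaling, scaling to cardiomyocyte genes, DESeq2 1.42.0, limma-voom (limma 3.58.1), no filter or at least 10 counts in every library, other transcript choices, a replicate block, a globin covariate, removal of the length trend (loess, span 0.5), and each library left out. Gene coordinates came from the GENCODE annotation of mm9, and figures were drawn with matplotlib 3.10.9.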

Additional observations from a re-analysis of the deposited data

Results flagged for a closer look

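Among 22 groups of 4 libraries (the log2 CPM of each of the 10 genes and the Sln to Pln ratio, in CTRL and in Isl1_hypo), 2 held a library whose gap to its nearest neighbour passed Dixon's critical value for 4 samples, where chance gives about 1.1. Ryr2 in CTRL replicate 4 was at 7.58 log2 CPM, and the other CTRL embryos lay between 7.12 and 7.16. The Sln to Pln ratio of Isl1_hypo replicate 3 was at −8.24 on the log2 scale, below −7.48 to −7.42 in the rest of its group.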

How the results depend on the processing

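The fall of Sln kept its direction in all 20 alternatives, with log2 fold changes from −2.43 to −2.07. Its adjusted p rose above 0.05 with the replicate block (−2.28, adjusted p = 0.102), with the globin covariate (−2.34, adjusted p = 0.420) and without CTRL replicate 1, CTRL replicate 3 or Isl1_hypo replicate 4. Leaving out 1 library gave −2.43 to −2.15. The number of the 10 genes called lower was 0 in those settings, and 0 to 1 without 1 library. The cause was not tested. DESeq2 called 1 gene higher, Pln, and 1 further calcium gene, Cacna1d, was called lower with DESeq2, limma-voom and cardiomyocyte scaling. Over all genes, 37 calls became 0 with the block and with the globin covariate (edgeR, with 882 lower and 700 higher, and 230 lower and 293 higher, at an unadjusted p under 0.05), 330 with DESeq2, 134 with limma-voom, and 4 to 48 without 1 library. The split of 17 lower and 20 higher became 20 and 11 with cardiomyocyte scaling, 13 and 24 with the length trend removed, 9 and 31 without CTRL replicate 4, 17 and 10 without Isl1_hypo replicate 1, and 1 and 3 without CTRL replicate 3. Replicate numbers did not pair the embryos (r of −0.021 to 0.022 between same-numbered deviations). Directions of genes that passed no test turned for Atp2a2 (globin −0.093, limma-voom −0.044, without 1 library −0.029 to 0.31), Casq2 (globin 0.38, limma-voom 0.15, without 1 library −0.25 to 0.28), Slc8a1 (length trend removed 0.27, without 1 library −0.092 to 0.080), Ryr2 (length trend removed 0.0033) and Casq1 (limma-voom −0.0093). The Sln to Pln difference moved by less than 1 SD in every setting in which it was recomputed. Sln had 21 counts in its lowest library.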
